A study of Equus caballus with 15 samples.

Results

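Cholesterol and fatty acid synthesis genes, together with the genes that respond to the sterol sensor LXR, were followed through equine macrophages given IL-1ß and orthobiologic therapies (OTs). The set held 42 of the 16932 genes listed, chosen by name from textbook pathways, with earlier results of these data known. It comprised 18 enzymes of cholesterol synthesis, 5 genes of SREBP control, 2 genes of sterol transport, 7 genes of fatty acid and glycerolipid synthesis, 2 LXR receptors, 6 LXR targets and 2 genes of the cholesterol ester cycle. The macrophages were derived from blood mononuclear cells of horses in 5 days of culture with M-CSF at 30 ng/ml, and mRNA was sequenced from 15 libraries, 3 in each of 5 conditions. Untreated macrophages received neither cytokine nor OT. IL-1ß macrophages received IL-1ß at 10 ng/ml alone, and the remaining groups received the same IL-1ß with an OT as 25% of the medium for 24 h. The OTs were ACS, an autologous conditioned serum from blood incubated to enrich cytokine antagonists, MSC-CM, the conditioned medium of bone marrow mesenchymal stromal cells, and PRP lysate, made by freezing platelet rich plasma. Each OT was prepared from 3 donor horses, so its libraries replicate the product, while the untreated and IL-1ß libraries are described as technical replicates and their spread does not include differences between animals.

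Cells hold sterol supply steady through opposed transcription programmes. When membrane sterol is low, SCAP carries the SREBP proteins out of the endoplasmic reticulum for cleavage, and SREBP2 (encoded by SREBF2) raises the enzymes of cholesterol synthesis while SREBP1 (encoded by SREBF1) raises those of fatty acid synthesis. When sterol is plentiful, INSIG proteins hold SCAP back, and oxysterols activate the LXR receptors, which raise the cholesterol exporters ABCA1 and ABCG1 as well as SREBF1 itself. Macrophages take up lipoproteins and dying cells, and LXR-driven export is their known route for unloading the sterol. Plasma and serum products carry lipoproteins, which is why the SREBP and LXR genes were counted apart.

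Between 28410735 and 47894070 reads were counted on genes per library, and at 1 CPM, the library-scaled count unit of the deposited values, a gene held 28.4 reads in the shallowest library. Tests used limma on log2(CPM + 1) over the 11628 genes whose mean reached 1 CPM, and all 42 genes of the set passed that filter. A gene was called at a Benjamini-Hochberg adjusted p of at most 0.05, with no fold threshold. IL-1ß replicate 3 and PRP lysate replicate 1 stood apart from all other libraries, at -103 and -51.7 on the first principal component, and MSC-CM replicate 1 followed at -20.7, while the others lay between -8.15 and 26.6. In IL-1ß replicate 3, 29 of the 42 genes were below the mean of the other IL-1ß libraries, with differences from -4.14 to 1.01 on the log2 scale. These differences correlated with the log2 span of the gene in the genome at r = -0.42 over the 42 genes and -0.42 over all genes tested. Libraries that did not stand apart gave values of like size and opposite sign. They were 0.42 and 0.42 in IL-1ß replicate 1 and 0.38 and 0.40 in untreated replicate 2. Because 3 libraries stood apart, each comparison is also given without them, which leaves 2 libraries in each of those groups. They were picked for their distance in these same data, so the fits without them can understate the spread and the p-values.

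**Figure D1:**
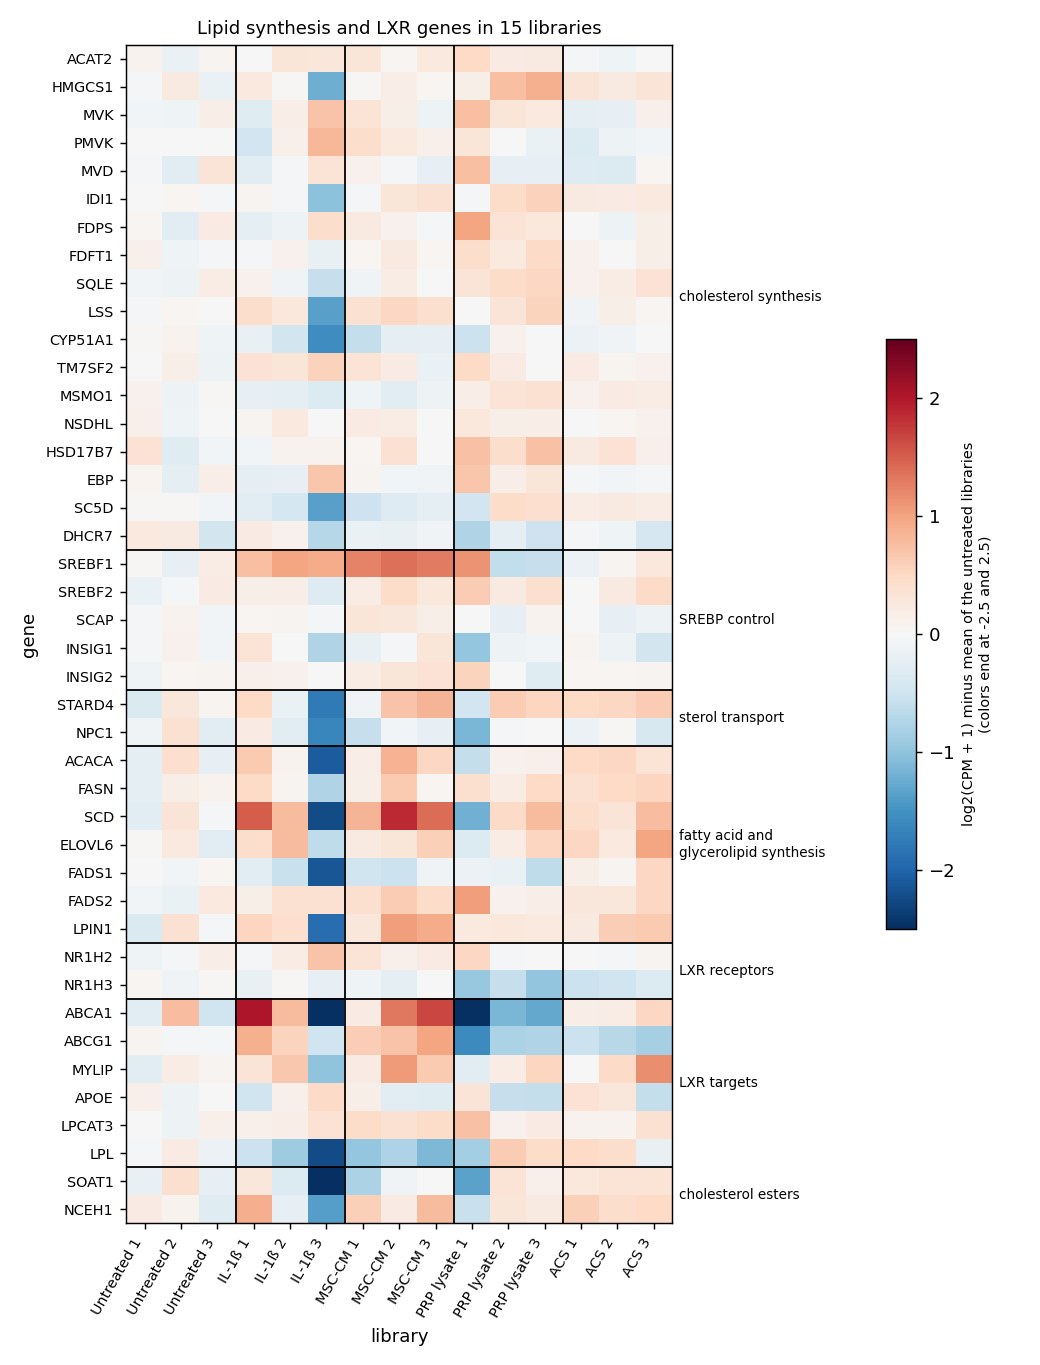
Levels of the 42 genes (rows, in the order of their roles) in each of the 15 libraries (columns), as log2(CPM + 1) minus the mean of the untreated libraries, with colors ending at -2.5 and 2.5. SREBF1 is red in every IL-1ß and MSC-CM library and in PRP lysate replicate 1, ABCA1 and ABCG1 are blue in every PRP lysate library, and IL-1ß replicate 3 is blue for ABCA1 and SCD where the other IL-1ß libraries are not.

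PRP lysate lowered the LXR receptor NR1H3 and the exporter ABCG1 and raised the sterol enzyme MSMO1 relative to IL-1ß alone. Relative to MSC-CM the same genes were called, and SREBF1 was called lower in addition. The SREBF1 call was lost in 13 of 16 alternatives, and its level in PRP lysate replicate 1 (143 CPM) was above every IL-1ß and untreated library. The MSMO1 call against MSC-CM was lost in 8 of 16. Calls of NR1H3, ABCG1 and MSMO1 against IL-1ß were lost in 2, 5 and 3 of 15. Of the 42 genes, 3 were called in PRP lysate against IL-1ß, where 4.94% of all genes tested were called, and 4 in PRP lysate against MSC-CM, where the share over all genes was 4.22%. With ACS, only ABCG1 was called, against MSC-CM, beside 1.92% of all genes. The shares of the set were 7.14%, 9.52% and 2.38%, each from so few genes that the counts do not set the set apart from the background. At the stricter rule of at least 2-fold, 1 gene remained against IL-1ß (3.09% of all genes), 2 in PRP lysate against MSC-CM (2.61%) and 1 in ACS against MSC-CM (1.23%), ABCG1 in each case and SREBF1 in addition against MSC-CM.

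ABCG1 exports cholesterol from macrophages to high density lipoprotein and is a direct LXR target (ENSECAG00000019065, EquCab3.0 chr26:39022948-39086035). It was at 40.2, 36.9 and 37.5 CPM in untreated macrophages, at 71.6, 56.4 and 26.8 CPM with IL-1ß, and at 59.0, 62.9 and 76.5 CPM with MSC-CM. PRP lysate left it at 12, 21.7 and 22.2 CPM and ACS at 25.9, 23.3 and 20.9 CPM. All 6 PRP lysate and ACS libraries were below every library of the other groups.

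In PRP lysate ABCG1 was 3.51-fold lower than in MSC-CM, a log2 fold change of -1.81 (SE 0.31, limma adjusted p = 0.00414), and this call held under all 16 alternatives run. Against IL-1ß alone the log2 fold change was -1.36 (limma adjusted p = 0.0204), and the call was lost when PRP lysate replicate 1 or either of IL-1ß replicates 1 and 2 was left out, in the fit of the 2 groups alone and with the replicate block. In ACS the difference from MSC-CM was -1.46 (limma adjusted p = 0.0284), but the call was lost when any of the 6 libraries was left out, with limma adjusted p up to 0.156. Against IL-1ß alone ACS gave -1.01 and missed the threshold (limma adjusted p = 0.0973). PRP lysate and ACS differed from each other by -0.35 on the log2 scale, with a 95% interval from -1.01 to 0.31, so that a difference of up to 2-fold between these products was not resolved.

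ABCA1, which hands cholesterol and phospholipid to apolipoprotein A1, was chosen for description after its values were seen (ENSECAG00000008852, EquCab3.0 chr25:11075323-11220429). PRP lysate libraries held 4.30, 34.2 and 31.1 CPM, below all MSC-CM libraries (88.5, 192 and 248 CPM), all ACS libraries (86.6, 87.4 and 110 CPM) and all untreated libraries (64.1, 132 and 53.8 CPM). The IL-1ß libraries ran from 10.8 CPM in replicate 3 to 134 and 315 CPM in the others, a spread wider than any difference between groups. The 8.95-fold difference between PRP lysate and MSC-CM was not called, at -3.16 on the log2 scale with a 95% interval from -5.31 to -1.02 (limma adjusted p = 0.107). Without the 3 libraries that stood apart it was called, at -2.70 (limma adjusted p = 0.000744). With the replicate number as a block in these 2 groups only, the same -3.16 was called (SE 0.27, limma adjusted p = 0.00114), and with the block in 12 libraries it was not (limma adjusted p = 0.280). The block in these 2 groups only, here and below, was added after their replicate numbers were seen to correlate in these data. Its p-values can therefore be too small. APOE, the apolipoprotein that macrophages secrete, lay between 19.9 and 43.1 CPM over all 15 libraries, and its groups overlapped in every comparison. MYLIP, a ubiquitin ligase for lipoprotein receptors, and LPCAT3, which builds polyunsaturated phospholipids, were called in none of the 10 comparisons over all 15 libraries. Without the 3 libraries both were called higher in MSC-CM than in untreated macrophages, MYLIP by 0.86 (limma adjusted p = 0.0482) and LPCAT3 by 0.42 (limma adjusted p = 0.0360). LPCAT3 went with the sum of T cell markers over the 15 libraries (r = 0.90, rho = 0.92), whose part was not tested.

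**Figure D2:**
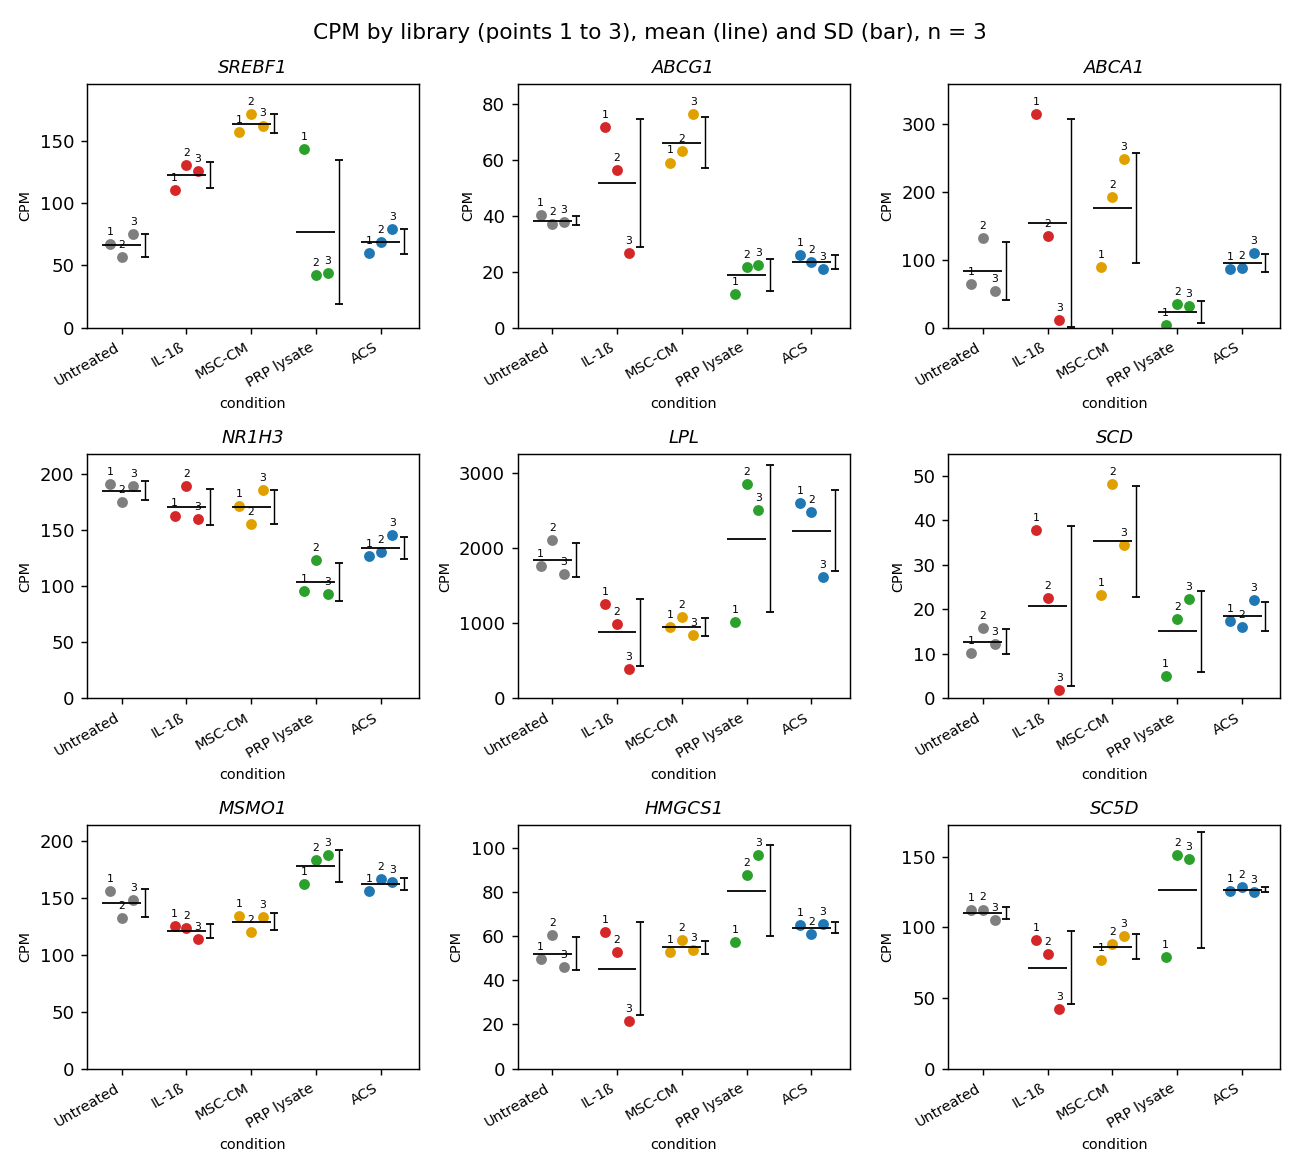
CPM of 9 genes in each library, with points numbered by replicate, a line at the group mean and a bar for the SD (n = 3). ABCG1 sits at 12 to 25.9 CPM in PRP lysate and ACS and at 26.8 to 76.5 CPM elsewhere, and PRP lysate replicate 1 lies away from replicates 2 and 3 for SREBF1, LPL and SC5D.

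NR1H3 encodes LXRα, the LXR form enriched in macrophages (ENSECAG00000015726, EquCab3.0 chr12:11743566-11749749). Its level was 185 ± 8.87 CPM in untreated macrophages, 171 ± 16.1 CPM with IL-1ß and 171 ± 15.1 CPM with MSC-CM (SD, n = 3). It was 134 ± 9.97 CPM with ACS (126, 131 and 145 CPM) and 104 ± 16.9 CPM with PRP lysate (95.2, 123 and 93.0 CPM). The 5 groups thus fell into an order in which the PRP lysate libraries lay below all ACS libraries and the ACS libraries below all others, without overlap. PRP lysate was lower than untreated macrophages by a log2 fold change of -0.84 (SE 0.13, limma adjusted p = 0.00388), than IL-1ß by -0.72 (limma adjusted p = 0.00606) and than MSC-CM by -0.72 (limma adjusted p = 0.00698). Each of these calls was kept in every fit that left out a library and by edgeR and DESeq2, and was lost only in the fit of the 2 groups alone and with a replicate block in 12 libraries. With the block in PRP lysate and MSC-CM only, the call between them was kept (limma adjusted p = 0.0396). For ACS against untreated macrophages the log2 fold change of -0.46 was not called (limma adjusted p = 0.233). NR1H2, the other LXR receptor, lay between 56.5 and 100 CPM, its highest values were in IL-1ß replicate 3 (100 CPM) and PRP lysate replicate 1 (86.9 CPM), and it was called in no comparison.

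SREBF1 encodes the SREBP that drives fatty acid synthesis, and its transcription is itself raised by LXR (ENSECAG00000019802, EquCab3.0 chr11:60416727-60556581). Untreated libraries held 66.7, 56.3 and 74.7 CPM, IL-1ß libraries 111, 130 and 126 CPM, and MSC-CM libraries 157, 172 and 162 CPM. ACS libraries were back at 59.4, 68.8 and 78.8 CPM, within the untreated range or close above it. With PRP lysate, replicates 2 and 3 held 42.4 and 43.8 CPM, below every other library, whereas replicate 1 held 143 CPM.

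PRP lysate against MSC-CM gave a log2 fold change of -1.33 for SREBF1 (SE 0.34, limma adjusted p = 0.0471), a call lost in 13 of 16 alternatives, and -1.93 without the libraries that stood apart (limma adjusted p = 2.48e-05). With the replicate block in these 2 groups only it was not called (limma adjusted p = 0.0508). The other comparisons did not pass the threshold. Groups did not overlap in 5 of them. MSC-CM exceeded untreated macrophages by 1.31 (limma adjusted p = 0.0740), IL-1ß exceeded untreated macrophages by 0.89 (limma adjusted p = 0.296), and MSC-CM exceeded IL-1ß by 0.42 (limma adjusted p = 0.705). ACS was below MSC-CM by a log2 fold change of -1.24 (limma adjusted p = 0.101) and below IL-1ß by -0.82 (limma adjusted p = 0.209). PRP lysate gave -0.91 against IL-1ß (limma adjusted p = 0.172) and -0.02 against untreated macrophages (limma adjusted p = 0.994), and in both the groups overlapped, with PRP lysate replicate 1 above every IL-1ß and untreated library. Without the 3 libraries, MSC-CM and IL-1ß against untreated macrophages were called, at 1.34 and 0.87, and ACS against MSC-CM and IL-1ß, at -1.27 and -0.80. PRP lysate replicates 2 and 3 were then called lower than IL-1ß, at -1.46 (limma adjusted p = 0.000149), and lower than untreated macrophages, at -0.59 (limma adjusted p = 0.0281).

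The remaining genes of SREBP control showed no such range. SREBF2, the regulator of cholesterol synthesis, was at 258 ± 34.4 CPM in untreated macrophages, 260 ± 46.7 CPM with IL-1ß, 317 ± 33.3 CPM with MSC-CM, 346 ± 51.3 CPM with PRP lysate and 305 ± 50.4 CPM with ACS (SD, n = 3). INSIG1, whose protein retains SCAP when sterol is plentiful, had group means from 154 to 201 CPM, with its lowest values in PRP lysate replicate 1 (98.5 CPM) and IL-1ß replicate 3 (116 CPM). Neither was called in any comparison, and the same held for SCAP and INSIG2. SCAP, chosen after its values were seen, was at 83.7 to 93.0 CPM with MSC-CM and at 65.6 to 80.5 CPM in every other library.

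The cells were bulk cultures, in which fewer cells of a type and less RNA per cell cannot be told apart. All 7 T cell markers were detected, summing to 602 to 892 CPM in untreated libraries, 836 to 1666 CPM with IL-1ß, 1181 to 1268 CPM with MSC-CM, 752 to 1701 CPM with PRP lysate and 722 to 926 CPM with ACS. Their highest sums were in PRP lysate replicate 1 and IL-1ß replicate 3. SREBF1 went with this sum over the 15 libraries (r = 0.76, rho = 0.78), as did NR1H2 (r = 0.91, rho = 0.92), and LPL went against it (r = -0.81, rho = -0.79). The points share the library, its depth and its condition, and the part of T cells in the SREBF1 result was not tested.

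Macrophage markers, 10 of 12 of which were listed, summed to 4193 to 6323 CPM in untreated libraries, 3438 to 6409 CPM with IL-1ß, 4328 to 5296 CPM with MSC-CM, 2040 to 4236 CPM with PRP lysate and 3651 to 4903 CPM with ACS. CD163, the haemoglobin scavenger receptor, fell with both blood products, to 11.4 CPM on average with PRP lysate and 64.6 CPM with ACS from 563 CPM with IL-1ß and 481 CPM with MSC-CM. NR1H3 (r = 0.62), ABCG1 (r = 0.73), ABCA1 (r = 0.83) and INSIG1 (r = 0.91) went with the macrophage sum over the 15 libraries, and its part in their differences was not tested. Summed B cell markers reached 47.6 CPM, platelet markers 42.7 CPM, in a PRP lysate library, stromal markers 20.4 CPM and adipocyte markers 0.95 CPM. Neutrophil markers, 4 of 5 of which were listed, summed to 325 to 389 CPM in untreated libraries, 311 to 392 CPM with IL-1ß, 268 to 431 CPM with MSC-CM, 485 to 546 CPM with PRP lysate and 530 to 759 CPM with ACS. Nearly all of this sum was CSF3R, the receptor for a granulocyte growth factor, while MPO, ELANE and S100A12 were each below 4 CPM in every library.

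**Figure D3:**
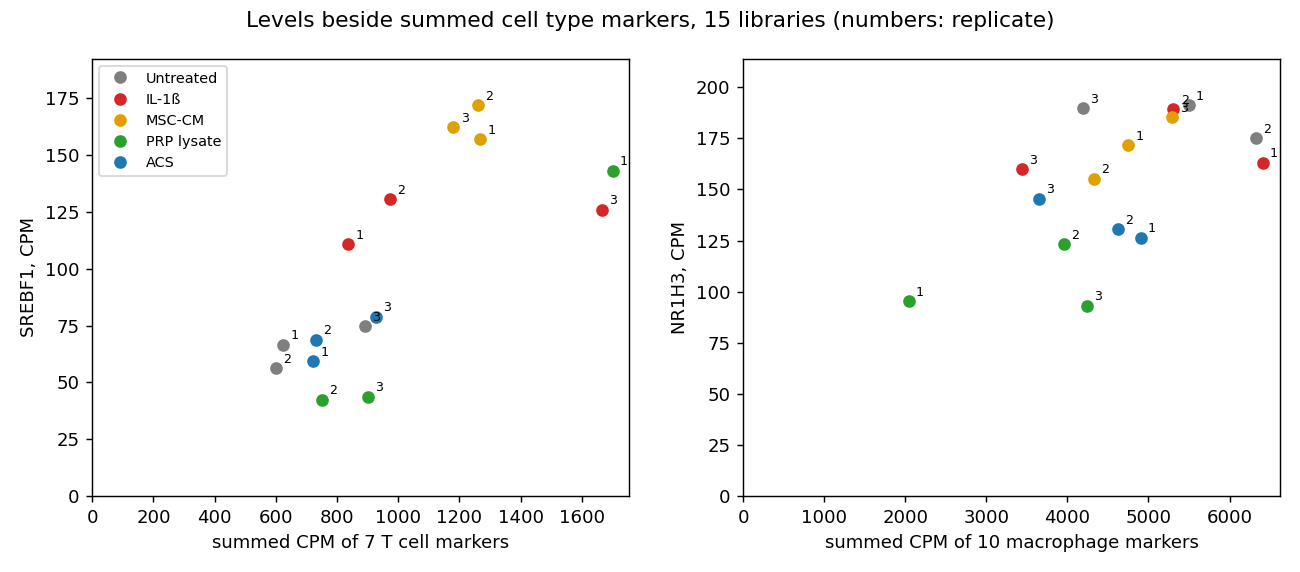
SREBF1 (left, CPM) against the summed CPM of 7 T cell markers, and NR1H3 (right, CPM) against the summed CPM of 10 macrophage markers, with 1 point per library, colored by condition and numbered by replicate. PRP lysate replicate 1 has 143 CPM of SREBF1 at a T cell sum of 1701 CPM, and IL-1ß replicate 3 has 126 CPM at 1666 CPM. The MSC-CM libraries have the highest SREBF1, 157 to 172 CPM, at T cell sums of 1181 to 1268 CPM. The 3 PRP lysate libraries lie at 93.0 to 123 CPM of NR1H3 and at macrophage sums of 2040 to 4236 CPM.

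Most enzymes of cholesterol synthesis were at slightly higher levels with PRP lysate than in each other condition, 15 or 16 of 18 in each comparison, and few of the differences passed the test. Against IL-1ß, 15 of the 18 enzymes were higher with a median log2 fold change of 0.47, beside a median of 0.11 over all genes tested. Against MSC-CM, again 15 of 18 were higher with a median of 0.25 and a median over all genes of -0.09. The comparisons share the PRP lysate libraries, so the second count adds no independent libraries on that side. Only MSMO1 was called in either. Over the 15 libraries FDPS (r = -0.94, rho = -0.87), EBP (r = -0.82, rho = -0.79), MVK (r = -0.81, rho = -0.71) and MVD (r = -0.79, rho = -0.57) went against the macrophage sum and DHCR7 went with it (r = 0.88, rho = 0.95), while with the T cell sum went MVK and ACAT2 (r = 0.75 each), PMVK (r = 0.74), MVD (r = 0.73) and FDPS (r = 0.67), and against it CYP51A1 (r = -0.77), SC5D (r = -0.75) and DHCR7 (r = -0.69). The part of either sum in the enzymes' differences was not tested.

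Averaged over the 18 enzymes, log2(CPM + 1) in the PRP lysate libraries lay 0.26, 0.25 and 0.27 above the untreated mean. The ACS libraries lay 0.01, 0.03 and 0.09 above it, the MSC-CM libraries 0.06, 0.09 and 0.00 from it, and the IL-1ß libraries at -0.04, 0.00 and -0.24. The mean of all genes tested lay at -0.13, 0.05 and 0.08 in the 3 PRP lysate libraries. In ACS against IL-1ß, 9 of the 18 enzymes were higher and 9 lower. The scaling moved the median of all genes by over 0.1 in MSC-CM against IL-1ß (by -0.16 with RLE factors and -0.13 with TMM factors), in ACS against IL-1ß (by -0.11 with RLE factors) and in MSC-CM against untreated macrophages (by -0.11 and -0.10). The count of enzymes higher with PRP lysate than IL-1ß was then 14 of 18 with RLE and 15 of 18 with TMM factors, whereas the 13 of 18 higher in MSC-CM than IL-1ß turned to 6 and 7 of 18.

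MSMO1, the sterol C4-methyl oxidase (ENSECAG00000010554, EquCab3.0 chr2:69865695-69901680), was at 162, 183 and 188 CPM with PRP lysate and at 156, 166 and 164 CPM with ACS. It was at 126, 124 and 114 CPM with IL-1ß, 134, 120 and 133 CPM with MSC-CM, and 156, 132 and 148 CPM in untreated macrophages. All PRP lysate libraries were above all libraries of IL-1ß, MSC-CM and untreated macrophages. The log2 fold change of PRP lysate was 0.55 against IL-1ß (SE 0.11, limma adjusted p = 0.00973) and 0.46 against MSC-CM (limma adjusted p = 0.0307), or 1.46-fold and 1.37-fold. The call against IL-1ß was lost with edgeR, with the 2 groups alone and with a replicate block, and the call against MSC-CM was lost in 8 of 16 alternatives. It was lost with the 2 groups alone and with the replicate block, in 12 libraries or in these 2 groups only. It was also lost when any MSC-CM library or PRP lysate replicate 2 or 3 was left out. ACS against IL-1ß gave 0.42 and narrowly missed the threshold (limma adjusted p = 0.0547).

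Other enzymes were described after their values were seen. SQLE, the squalene epoxidase and a control point of the pathway, was at 68.7, 75.9 and 79.5 CPM with PRP lysate and at 36.4 to 59.2 CPM with IL-1ß, without overlap (log2 fold change 0.62, limma adjusted p = 0.0582). FDFT1, which makes squalene, was at 106 to 124 CPM with PRP lysate and at 78.5 to 105 CPM in all other libraries. HSD17B7, a sterol ketoreductase, was at 16.6 to 20.6 CPM with PRP lysate and at 9.59 to 15.9 CPM in all other libraries. HMGCS1, which makes the precursor of mevalonate, was at 87.7 and 97.0 CPM in PRP lysate replicates 2 and 3 but at 57.3 CPM in replicate 1, and at 21.7 to 65.3 CPM elsewhere. SC5D, the lathosterol oxidase, was at 151 and 149 CPM in PRP lysate replicates 2 and 3 and 79.2 CPM in replicate 1, at 126, 128 and 125 CPM with ACS, and at 42.1 to 113 CPM in the remaining groups. DHCR7, the last step of the pathway, averaged 92.2 CPM with PRP lysate and 114 to 132 CPM in the other groups. CYP51A1, the lanosterol demethylase, averaged 186 CPM with PRP lysate, below untreated macrophages (201 CPM) and ACS (190 CPM) and above IL-1ß (131 CPM) and MSC-CM (158 CPM).

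Over the 15 libraries FDFT1 (r = 0.92), SQLE (r = 0.84) and MSMO1 (r = 0.72) went with the mean of the other enzymes, while PMVK (r = -0.38), DHCR7 (r = -0.36) and TM7SF2 (r = -0.26) did not. The genes outside the set whose log2 levels went most closely with the mean of the 18 enzymes were CPOX, a heme synthesis enzyme (r = 0.92), DUS4L (r = 0.91), SNRPB2 (r = 0.90), SLC25A22 (r = 0.89), YRDC (r = 0.88), LEO1 (r = 0.88), RCC1 (r = 0.87) and ODC1, which starts polyamine synthesis (r = 0.87). These correlations are over libraries that share conditions and depth and are given as a description.

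The 7 genes of fatty acid and glycerolipid synthesis were called in none of the 10 comparisons over all 15 libraries. Their mean log2 level against the untreated mean was 0.23, 0.69 and 0.55 with MSC-CM, 0.36, 0.36 and 0.62 with ACS, -0.08, 0.17 and 0.24 with PRP lysate, and 0.50, 0.28 and -1.34 with IL-1ß, where replicate 3 carried the low value. FASN, the fatty acid synthase, had group means from 315 CPM in untreated macrophages to 434 CPM with ACS, a log2 fold change of 0.47 (limma adjusted p = 0.764). SCD, the stearoyl-CoA desaturase and a target of both SREBP1 and LXR, was chosen after its values were seen. It was at 10.2, 15.8 and 12.1 CPM in untreated macrophages, 37.7, 22.5 and 1.87 CPM with IL-1ß and 23.1, 48.1 and 34.5 CPM with MSC-CM. With PRP lysate it was at 4.89, 17.8 and 22.4 CPM and with ACS at 17.2, 15.9 and 22.1 CPM, below every MSC-CM library. The log2 fold change of PRP lysate against MSC-CM was -1.34 (limma adjusted p = 0.499), and it was called without the 3 libraries, at -0.99 (limma adjusted p = 0.0261). It was also called with the replicate block in these 2 groups only (limma adjusted p = 0.0216), the fit added after the correlations were seen. With the block in 12 libraries it was not called. FADS1 and FADS2, the polyunsaturated fatty acid desaturases, overlap on chromosome 12 and counting by strand is not stated, so their split of reads is uncertain.

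LPL, the lipoprotein lipase, was highly variable and was chosen after its values were seen (ENSECAG00000010145, EquCab3.0 chr2:49312731-49334046). It was at 1761, 2099 and 1654 CPM in untreated macrophages, 1254, 984 and 387 CPM with IL-1ß and 941, 1073 and 835 CPM with MSC-CM. ACS libraries held 2593, 2480 and 1613 CPM, and PRP lysate libraries 1011, 2850 and 2504 CPM. All IL-1ß and MSC-CM libraries lay below all untreated and all ACS libraries. The log2 fold change was 1.48 in ACS against IL-1ß (limma adjusted p = 0.0776), 1.21 in ACS against MSC-CM (limma adjusted p = 0.196) and 1.31 in PRP lysate against IL-1ß (limma adjusted p = 0.106), none of them called. Without the 3 libraries these were called at 0.97, 1.20 and 1.27.

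Sterol transport and ester genes were called in no comparison over all 15 libraries. STARD4, which moves cholesterol between membranes, had group means from 15.7 to 27.4 CPM, and without the 3 libraries it was called higher in MSC-CM than in untreated macrophages (0.79, limma adjusted p = 0.0214). NPC1, which exports cholesterol from lysosomes, had group means from 149 to 198 CPM. SOAT1, which esterifies cholesterol for storage, averaged 202 ± 6.74 CPM with ACS and 118 ± 85.7 CPM with IL-1ß (SD, n = 3), and NCEH1, an ester hydrolase, was at group means of 1.63 to 2.80 CPM.

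**Figure D4:**
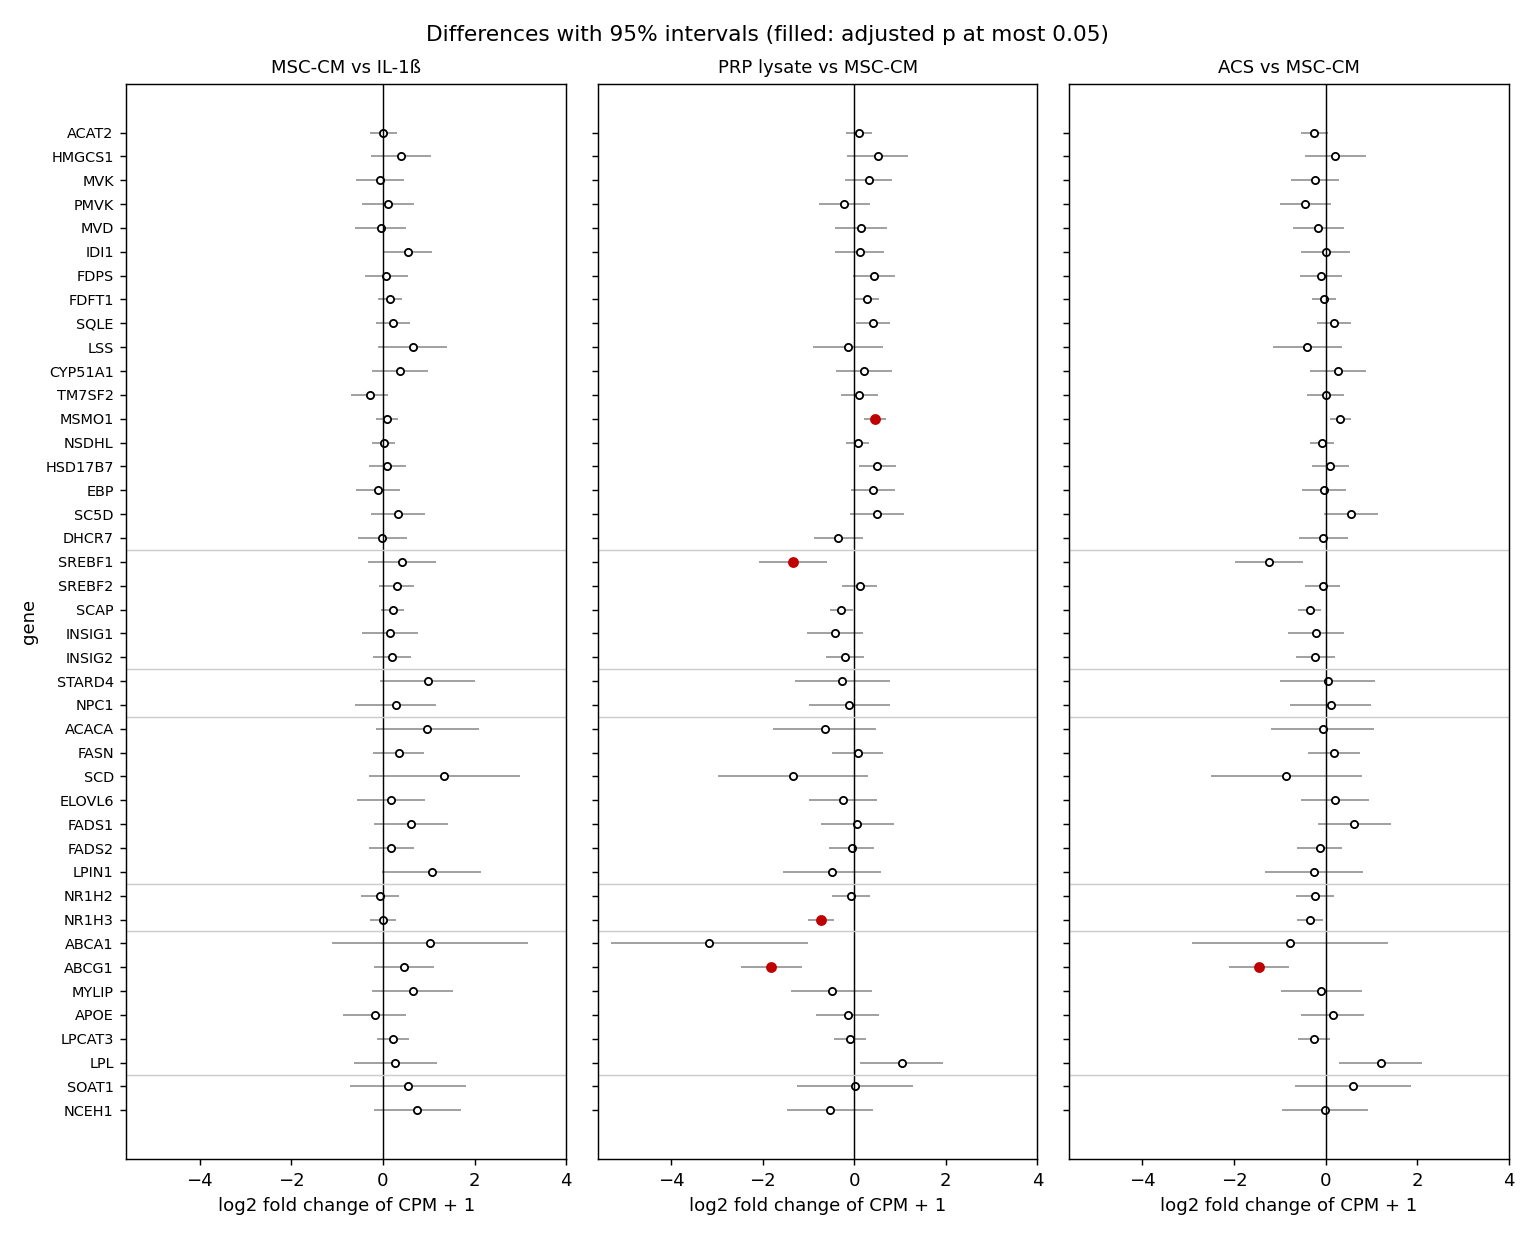
Log2 fold change of CPM + 1 with 95% intervals for the 42 genes in MSC-CM against IL-1ß, PRP lysate against MSC-CM, and ACS against MSC-CM, with filled points for an adjusted p of at most 0.05. No point is filled on the left, 4 are filled in the middle (MSMO1 to the right of 0, SREBF1, NR1H3 and ABCG1 to the left), and ABCG1 alone is filled on the right.

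The remaining comparisons called few or none of the 42 genes. IL-1ß against untreated macrophages called 0 by limma, edgeR and DESeq2, with 7 at an unadjusted p under 0.05 (13% of all genes) and 0.387% of all genes called. MSC-CM against IL-1ß called 0 by all 3 tools, with 1 at an unadjusted p under 0.05 (5.6% of all genes), and limma called 0% of all genes. ACS against IL-1ß called 0 by limma, 1 by edgeR and 5 by DESeq2, with 10 at an unadjusted p under 0.05 (20.5% of all genes) and 3.45% of all genes called. PRP lysate against ACS called 0 by all 3 tools, with 6 at an unadjusted p under 0.05 (5.19% of all genes) and 0.103% of all genes called. Against untreated macrophages, MSC-CM called 0 by all 3 tools (4 at an unadjusted p under 0.05 beside 15.7% of all genes, with 1.92% of all genes called), PRP lysate called NR1H3 alone (2.59%), and ACS called 0 by limma and edgeR and 1 by DESeq2 (2 at an unadjusted p under 0.05 beside 7.65% of all genes, with 0.473% called).

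Leaving out IL-1ß replicate 3, PRP lysate replicate 1 and MSC-CM replicate 1 raised the counts of the set and of all genes. PRP lysate against IL-1ß then called 9 of 42, with HMGCS1, IDI1, MSMO1, SC5D and LPL higher and SREBF1, NR1H3, ABCA1 and ABCG1 lower, beside 10.1% of all genes. PRP lysate against MSC-CM called 9, with HMGCS1, MSMO1, SC5D and LPL higher and SREBF1, SCD, NR1H3, ABCA1 and ABCG1 lower, beside 13% of all genes. ACS called 5 against IL-1ß (6.64% of all genes), namely MSMO1, SC5D and LPL higher and SREBF1 and ABCG1 lower, and 5 against MSC-CM (8.72%), namely SC5D and LPL higher and SREBF1, SCD and ABCG1 lower. IL-1ß against untreated macrophages called SREBF1, SCD, ABCA1 and ABCG1, all higher (3.53%).

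MSC-CM against untreated macrophages called 13 without those libraries (17.1% of all genes), with LPL lower and 12 higher, namely SCD at 1.63, ABCA1 at 1.49, SREBF1 at 1.34, LPIN1 at 0.98 and ABCG1 at 0.84 on the log2 scale, with IDI1, LSS, STARD4, ACACA, FADS2, MYLIP and LPCAT3. PRP lysate against untreated macrophages called 7 (7.07%), with HMGCS1, IDI1, SQLE and SC5D higher and SREBF1, NR1H3 and ABCG1 lower, and ACS called NR1H3 and ABCG1, both lower (4.18%). MSC-CM against IL-1ß (0%) and PRP lysate against ACS (0.636%) again called 0 of the 42, with 3 and 13 at an unadjusted p under 0.05, beside 7.52% and 8.72% of all genes. The libraries left out were picked for their distance from the rest over all genes.

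Replicate numbers of MSC-CM and PRP lysate libraries moved together. With the replicate number as a block in 12 libraries, PRP lysate against MSC-CM called 1 of the 42, ABCG1, beside 1.64% of all genes, and with the block in these 2 groups only, a fit added after seeing the correlations, it called 4, namely ABCA1, ABCG1, NR1H3 and SCD, all lower, beside 5.56% of all genes.

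Genes of the same pathways outside the set were tested alongside. Of 15 tested genes of LXR response and sterol efflux outside the set, 6 were called in PRP lysate against IL-1ß (4.94% of all genes), 3 in ACS against IL-1ß (3.45%) and 3 in PRP lysate against MSC-CM (4.22%). SMPDL3A, a phosphodiesterase, was at 24.6, 30.3 and 29.7 CPM with PRP lysate, 46.1, 35.5 and 36.8 CPM with ACS and 61.3 to 133 CPM with IL-1ß and MSC-CM. Its log2 fold changes were -1.73 for PRP lysate against IL-1ß (limma adjusted p = 0.00290) and -1.25 for ACS against MSC-CM (limma adjusted p = 0.0418). PLTP, the phospholipid transfer protein, was at 27.6 to 48.1 CPM with PRP lysate and 80.5 to 138 CPM with IL-1ß and MSC-CM (-1.58 against IL-1ß, limma adjusted p = 0.00970). CH25H, which makes 25-hydroxycholesterol, an LXR ligand, was at 0.24 to 1.17 CPM with PRP lysate and 3.45 to 5.19 CPM with IL-1ß (-1.78, limma adjusted p = 0.00566). The lipid transporter ABCA3 was also lower with PRP lysate than IL-1ß (-0.84, limma adjusted p = 0.0452). VLDLR, a lipoprotein receptor, was higher than with IL-1ß in PRP lysate (1.25, limma adjusted p = 0.0367) and in ACS (1.30, limma adjusted p = 0.0384).

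Among 12 tested genes of PPAR response and lipid droplets, ANGPTL4, an inhibitor of lipoprotein lipase, was at 240, 256 and 333 CPM with PRP lysate, 111, 155 and 181 CPM with ACS and 44.3, 54.2 and 59.7 CPM with MSC-CM. It was higher than with MSC-CM by 2.37 in PRP lysate (limma adjusted p = 0.000641) and 1.46 in ACS (limma adjusted p = 0.0253). HILPDA, which restrains lipolysis at lipid droplets, was at 50.7 to 77.4 CPM with PRP lysate and 23.8 to 30.8 CPM with MSC-CM (1.15, limma adjusted p = 0.00219). These 2 genes were the ones of the 12 called, both higher, in PRP lysate against IL-1ß (4.94% of all genes) and against MSC-CM (4.22%) and in ACS against MSC-CM (1.92%). FABP5, a fatty acid binding protein, was lower in ACS than IL-1ß (-0.70, limma adjusted p = 0.0343), and PPARG, the lipid-sensing receptor of adipocytes and macrophages, was lower in PRP lysate than untreated macrophages (-0.64, limma adjusted p = 0.0151), each the only call of the 12 in its comparison (3.45% and 2.59% of all genes). Among 16 tested genes that extend the synthesis and SREBP lists, ELOVL1, a fatty acid elongase, was higher with PRP lysate than with IL-1ß (0.42, limma adjusted p = 0.0240) and than with MSC-CM (0.43, limma adjusted p = 0.0233).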

How the data were processed

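Polyadenylated RNA was sequenced from 15 libraries, 3 in each of 5 conditions. The authors deposited CPM per gene, which are read counts scaled to a common total, and made them in Partek. Adapters were removed with cutadapt, STAR 2.7.3 served as the aligner against EquCab3.0, and HTSeq assigned reads to Ensembl genes. Strand use in counting is not given in the sources used here. The columns summed to 982495 to 991421 CPM, so some reads lay on genes that were not listed. The methods give a further 24 h of culture after treatment, and the sample descriptions give collection after treatment. All columns matched a sample.

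The CPM were fitted with limma 3.58.1 in R 4.3.3, with an intensity trend, on log2(CPM + 1), which shrinks fold changes of low genes. All 5 conditions were in 1 model without a replicate block, and p-values were adjusted by Benjamini-Hochberg within each of 10 comparisons. Because separate cultures are not stated for every library, p-values measure the spread between these libraries. Whole reads were recovered from the CPM steps (100% of 125536 values up to 1000 reads within 0.02 reads) and tested with edgeR 4.0.16, over 13675 genes, and DESeq2 1.42.0. Other settings tried were RLE and TMM factors, a pseudocount of 0.1, dropping the filter, a replicate block, a fit of the 2 groups alone, omission of libraries, and at least 2-fold.

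Replicate numbers pair libraries where every same-numbered correlation of deviations is over 0.1. This held for MSC-CM and PRP lysate (0.63, 0.26 and 0.42) and for no other groups (18 correlations, -0.77 to 0.63). ACS titles carry no number.

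The 42 genes, the related genes and the cell type markers were chosen with earlier results of these data known. Genes were described in full if called in any comparison, with NR1H2, NR1H3, SREBF1, SREBF2 and INSIG1 whatever their tests, and from the related genes the 8 called ones with the largest change. Some results on related genes are not reported here. In simulated libraries for ACS against IL-1ß (11628 genes, seed 20230216), limma called 164 of 200 changed genes, 100% of 4-fold and 67.0% of 2-fold changes, and 11 unchanged genes. With nothing changed it called 0 of 11602. In the simulation the spread depended on the mean level alone and no library stood apart. Its shares can therefore exceed detection in the real libraries. Depth limits cover counting error only. Python 3.11.15 drew the plots.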

Additional observations from a re-analysis of the deposited data

How the results depend on the processing

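The counts called among the 42 genes depended on how the spread was estimated and on the libraries that stood apart. PRP lysate against IL-1ß (3 called) gave 8 with DESeq2, 0 with only the 2 groups, 0 with the replicate block, 9 without the 3 libraries and 1 at 2-fold. PRP lysate against MSC-CM (4 called) gave 1 with only the 2 groups, 1 with the replicate block, 9 without the 3 libraries and 2 at 2-fold. ACS against IL-1ß (0 called) gave 1 with no filter, with RLE or TMM factors and with edgeR, 5 with DESeq2 and 5 without the 3 libraries. ACS against MSC-CM (1 called) gave 2 with DESeq2, 6 with only the 2 groups and 5 without the 3 libraries. MSC-CM against untreated macrophages (0 called) gave 4 with only the 2 groups and 13 without the 3 libraries. PRP lysate against untreated macrophages (1 called) gave 2 with RLE, with TMM and with DESeq2, 0 with only the 2 groups, 0 with the replicate block, 7 without the 3 libraries and 0 at 2-fold. ACS against untreated macrophages (0 called) gave 1 with DESeq2, 2 with only the 2 groups and 2 without the 3 libraries, and IL-1ß against untreated macrophages (0 called) gave 4 without the 3 libraries. The share of all genes called moved as well, in PRP lysate against IL-1ß from 4.94% to 6.45% with DESeq2, 0.482% with only the 2 groups, 1.86% with the replicate block and 10.1% without the 3 libraries, and in PRP lysate against MSC-CM from 4.22% to 4.9%, 1.59%, 1.64% and 13%. With only the 2 groups it was 13.2% in ACS against MSC-CM and 7.8% in MSC-CM against untreated macrophages, from 1.92% in each. In ACS against IL-1ß it was 2.16% with no filter, 3.45% with RLE, 3.48% with TMM, 2.34% with edgeR and 5.61% with DESeq2. DESeq2 gave 3.08% in ACS against MSC-CM. In PRP lysate against untreated macrophages it was 2.48% with RLE, 2.51% with TMM and 3.48% with DESeq2. It was 0.439% there with only the 2 groups and 0.671% with the replicate block. ACS against untreated macrophages gave 1.18% with DESeq2 and 2.88% with only the 2 groups. The shares with DESeq2 are of 16927 genes, with no filter of 16932, with edgeR of 13675 and the others of 11628. The cause of these shifts was not tested.

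Leaving out 1 library at a time gave 2 to 5 for PRP lysate against IL-1ß (2 when IL-1ß replicate 2 was omitted, 5 when IL-1ß replicate 1 or PRP lysate replicate 1 was), and 2 to 5 for PRP lysate against MSC-CM (2 without any MSC-CM library or PRP lysate replicate 2 or 3, 5 without PRP lysate replicate 1). It gave 0 to 6 for ACS against IL-1ß (6 when IL-1ß replicate 1 was omitted and 1 when replicate 3 was). For ACS against MSC-CM it gave 0 when any of the 6 libraries was omitted. The share of all genes called moved with these omissions as well. For ACS against IL-1ß the largest share, 10.1%, came with omission of IL-1ß replicate 1. The other omissions gave 1.04% to 2.34% there. Shares ran from 3.04% to 6.87% for PRP lysate against IL-1ß and from 1.88% to 6.04% for PRP lysate against MSC-CM. For ACS against MSC-CM they ran from 0.542% to 1.34%. Of the 6 comparisons without ACS, in which the replicate block could be fitted in 12 libraries, it changed no count of called genes other than the 3 given above, and no called log2 fold change reversed under any alternative.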
